A study of Solanum lycopersicum with 2 samples.

Results

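The genes described here are the steps of jasmonate synthesis and perception in young tomato leaf, together with the precursor of the wound signal systemin. They are prosystemin, LOXD, AOS1, AOS2, AOC, OPR3, JAR1, COI1 and MYC2, and were chosen by identifier, for their place in the pathway, as 9 of the 34725 gene models in the table. The rule uses no measured value, although it was written with earlier results of these libraries known. The plants were Solanum lycopersicum of the cultivar Ailsa Craig. One library came from plants overexpressing SlCycB2 (SlCycB2-OE) and 1 from plants with RNA interference against the same gene (SlCycB2 RNAi). SlCycB2 is a B-type cyclin gene that the series studies in multicellular trichomes, herbivore defence and reproductive organs. Both libraries were made from young primary leaf of mature plants. The labels used here do not give the promoter of either construct, the number of transgenic lines or the number of plants behind a library, and no wild-type leaf was analysed here. A difference between the libraries therefore cannot be assigned to overexpression or to RNA interference.

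Levels are RPKM, which scales the reads of a gene to its length and to the mapped reads of the library, so they are given per length and can be set side by side between genes. Read totals are not in the table, which leaves the depth of each library and the counting error of each value unknown. Neither group has a second library, hence there is no spread between replicates and no test, and every comparison describes this pair of libraries. RPKM was above 0 for 23901 gene models in the SlCycB2-OE library and 23804 in the SlCycB2 RNAi library. The leaf label was checked on 3 loci written down as Rubisco small subunit genes, which stood at 8226 to 20710 RPKM in the SlCycB2-OE library and 9919 to 25689 RPKM in the SlCycB2 RNAi library. Loci written down as ripening fruit markers reached 1.89 RPKM in SlCycB2-OE leaf and 0.87 RPKM in SlCycB2 RNAi leaf, and a floral organ identity locus stood at 0.10 RPKM in SlCycB2-OE leaf and was listed at 0 in SlCycB2 RNAi leaf. No identifier for SlCycB2 was among those written down and the table gives no names, so the level of the manipulated gene, which would check the labels, was not read. The compared gene with the highest ratio, Solyc10g083140.1.1, was at 4816 RPKM in SlCycB2-OE leaf and 12.34 RPKM in SlCycB2 RNAi leaf, and what it encodes was not annotated in the sources used. For 8 of the 9 members a RefSeq gene of the same symbol lies on the chromosome that the identifier names. For prosystemin a RefSeq gene of that symbol was sought and not found. A shared symbol and chromosome cannot tie a name to 1 locus, so the link between name and identifier remains unchecked for all 9 members. In leaf tissue as a whole, a lower share of cells of a given type and less RNA per cell cannot be told apart.

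Jasmonates are lipid-derived hormones that switch on chemical defences after wounding or insect attack. In tomato, damage releases systemin from prosystemin, and in the chloroplast a lipoxygenase, an allene oxide synthase and an allene oxide cyclase turn a polyunsaturated fatty acid into oxophytodienoic acid (OPDA). OPDA is reduced and shortened in the peroxisome to jasmonic acid, which is then joined to isoleucine. The conjugate binds COI1 together with a JAZ repressor, the repressor is destroyed, and the transcription factor MYC2 is freed to act on wound-response genes.

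The prosystemin transcript was the member that differed most between the libraries. LOXD followed with a smaller difference in the same direction. AOS2, AOC, OPR3, the conjugating enzyme JAR1, the receptor COI1 and the regulator MYC2 each differed by at most 1.22 times between the libraries, and AOS1 was low in both. Of the 8 members with a mean RPKM of at least 1, prosystemin alone was at least 2-fold higher in SlCycB2-OE leaf and 0 were at least 2-fold lower. AOS1, the other member, was below that mean. Of the 19466 genes compared in this way, 2.6% passed the 2-fold limit in the higher direction and 1.92% in the lower. The 1 member past the limit is too few to set its share against these.

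Prosystemin (Solyc05g051750.2.1), the precursor protein from which the peptide wound signal is cut, was at 60.21 RPKM in the SlCycB2-OE library and 25.68 RPKM in the SlCycB2 RNAi library. Its level was thus 2.34 times as high in SlCycB2-OE leaf. On the scale used for all genes, the log2 ratio of RPKM with a pseudocount of 1 added to each value (SlCycB2-OE over SlCycB2 RNAi), the difference was 1.20. Among the 19466 compared genes, 324 had a ratio at least as high, prosystemin included. The 10 nearest compared identifiers on chromosome 5, 5 on either side, had log2 ratios between -0.39 and 0.37, and 0 of them were 2-fold apart. Of all compared genes, 2.6% were at least 2-fold higher and 1.92% lower, so 0 among 10 is near the general share. These neighbours were examined after the data were seen.

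**Figure D1:**
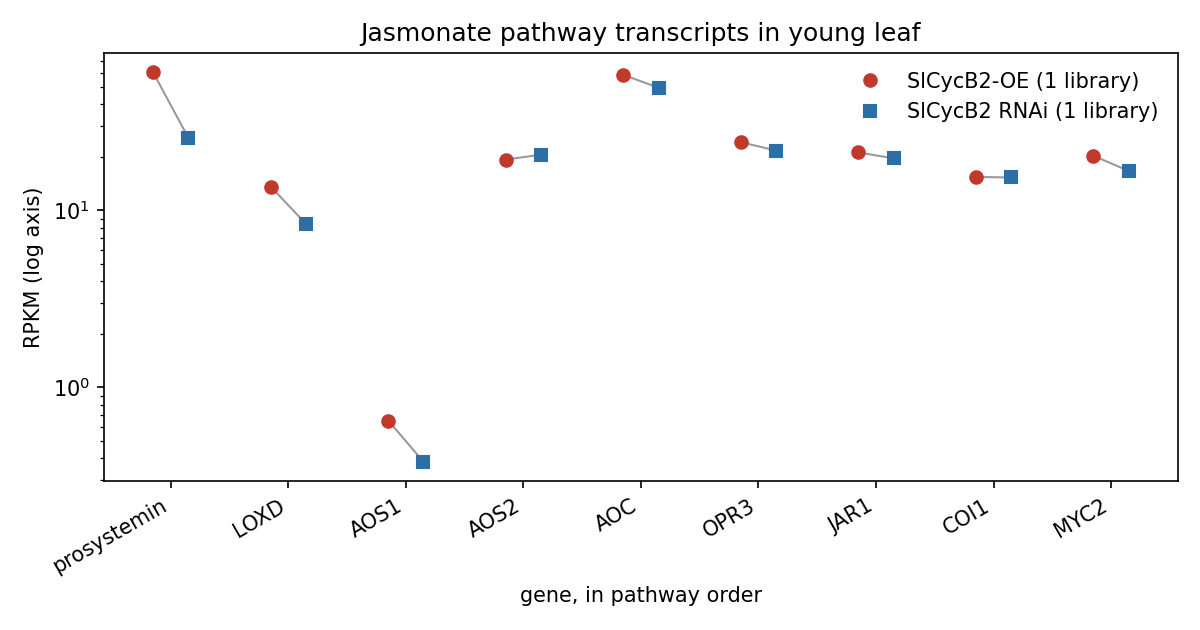
RPKM (log axis) of the 9 genes in pathway order, with red circles for the SlCycB2-OE library and blue squares for the SlCycB2 RNAi library; each symbol is 1 library, so there are no error bars. Prosystemin has the widest gap on this axis, 60.21 against 25.68 RPKM, and AOS1 lies far below the others in both libraries.

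LOXD (Solyc03g122340.2.1) encodes the lipoxygenase that starts the wound-responsive branch of jasmonate synthesis. It stood at 13.64 RPKM in SlCycB2-OE leaf and 8.40 RPKM in SlCycB2 RNAi leaf, a level 1.62 times as high and a log2 ratio of 0.64. The difference was under the 2-fold limit but over a 1.5-fold limit, which 9.37% of the compared genes passed in the higher direction. With all ratios centred on their median, LOXD came to 0.50 and was under the 1.5-fold limit as well. In both libraries LOXD was the least abundant of the pathway enzymes other than AOS1.

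The allene oxide synthases, which convert the lipoxygenase product into an unstable allene oxide, were very unequal in level. AOS2 (Solyc11g069800.1.1) was at 19.40 RPKM in the SlCycB2-OE library and 20.65 RPKM in the SlCycB2 RNAi library, a log2 ratio of -0.09. AOS1 (Solyc04g079730.1.1) was at 0.65 RPKM in SlCycB2-OE leaf and 0.38 RPKM in SlCycB2 RNAi leaf. AOS2 thus held nearly all of the transcript of this step, at 29.8 times the AOS1 level in SlCycB2-OE leaf and 54.3 times in SlCycB2 RNAi leaf. Among the 8 compared members, AOS2 was the only one with a lower deposited RPKM in SlCycB2-OE leaf. The AOS1 difference amounted to 0.27 RPKM. Its log2 ratio was 0.64 with a pseudocount of 0.1, 0.26 with 1 and 0.07 with 5, so at this level its size is set mainly by the pseudocount.

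AOC (Solyc02g085730.2.1), the allene oxide cyclase that fixes the stereochemistry of OPDA, was the most abundant enzyme of the pathway in both libraries. It reached 58.37 RPKM in SlCycB2-OE leaf and 49.35 RPKM in SlCycB2 RNAi leaf, a log2 ratio of 0.24. OPR3 (Solyc07g007870.2.1), the peroxisomal enzyme that reduces OPDA, was at 24.32 RPKM in the SlCycB2-OE library and 21.79 RPKM in the SlCycB2 RNAi library, a log2 ratio of 0.15. JAR1 (Solyc10g011660.2.1), which joins jasmonic acid to isoleucine, was at 21.26 RPKM in SlCycB2-OE leaf and 19.70 RPKM in SlCycB2 RNAi leaf, a log2 ratio of 0.10. The values of these enzymes in SlCycB2-OE leaf were thus 108% to 118% of those in SlCycB2 RNAi leaf. Summed over the 6 enzymes from LOXD to JAR1, the level was 137.6 RPKM in SlCycB2-OE leaf and 120.3 RPKM in SlCycB2 RNAi leaf, 1.14 times as high. To this difference AOC gave 9.02 RPKM and LOXD 5.24 RPKM, while AOS2 gave -1.25 RPKM. The sum is as deposited and is not corrected for the general offset described below.

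COI1 (Solyc05g052620.2.1), the F-box protein that perceives the hormone, had the smallest difference of the 9 genes in the deposited values. It was at 15.46 RPKM in the SlCycB2-OE library and 15.36 RPKM in the SlCycB2 RNAi library, a log2 ratio of 0.01. MYC2 (Solyc08g076930.1.1), the basic helix-loop-helix factor at the head of the transcriptional response, was at 20.35 RPKM in SlCycB2-OE leaf and 16.73 RPKM in SlCycB2 RNAi leaf, a log2 ratio of 0.27. Of the compared genes, 32.2% had a ratio at least as high as that of MYC2 and 66.9% one at least as high as that of COI1. MYC2 was present at 1.32 times the COI1 level in SlCycB2-OE leaf and 1.09 times in SlCycB2 RNAi leaf.

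The small differences have to be read against a general offset. Over all compared genes the median log2 ratio was 0.13 instead of 0, and 67.8% of compared genes had a positive ratio. The median of the 8 compared members was 0.19. With ratios centred on that general median, prosystemin was still the 1 member at least 2-fold higher and 0 were lower, where 1.9% of compared genes were higher and 2.48% lower. Relative to the median of all genes, prosystemin stood at 1.06, LOXD at 0.50, MYC2 at 0.13, AOC at 0.10 and OPR3 at 0.02. On the same centred scale, JAR1 stood at -0.03, COI1 at -0.13 and AOS2 at -0.22. The signs of JAR1 and COI1 were thus positive as deposited and negative after centring or when scaled by the trimmed mean. Their direction is not established by these data, and that of OPR3 is close to 0 after either scaling. The signs of prosystemin, LOXD, AOC and MYC2 were positive, and that of AOS2 negative, under each of the pseudocounts and scalings run. A pseudocount cannot change a sign, so only the scalings could have done so. Each setting reuses the same 2 libraries, so a sign that stays the same does not establish a direction either.

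**Figure D2:**
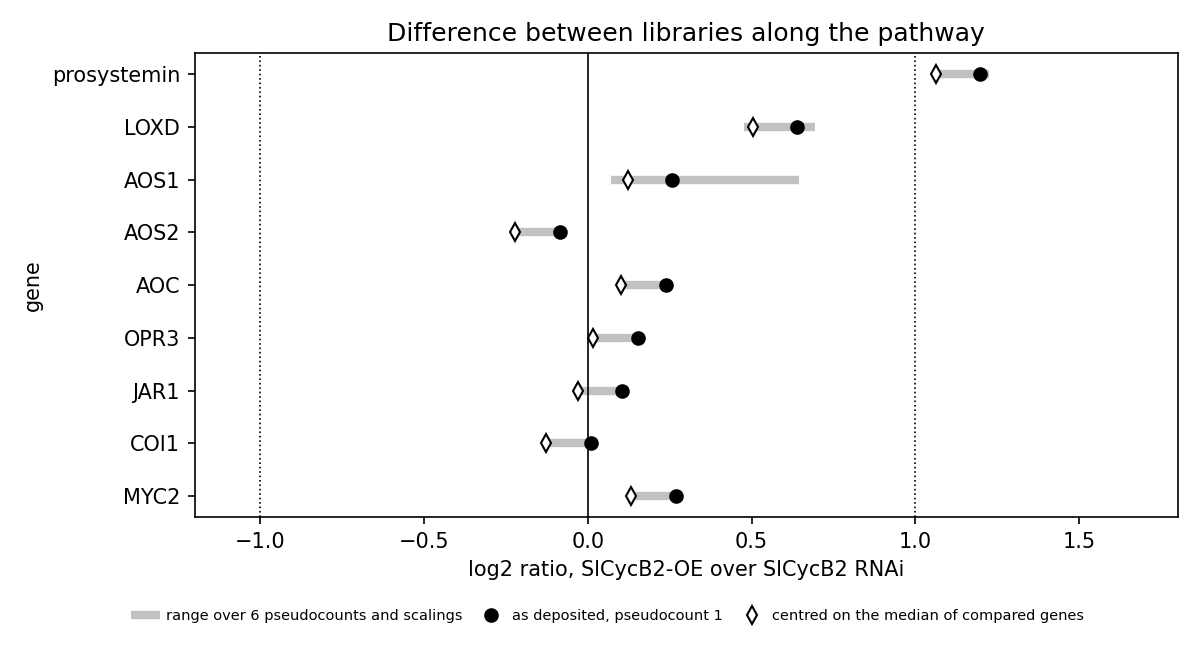
Log2 ratio of SlCycB2-OE over SlCycB2 RNAi for the 9 genes, in pathway order from top to bottom: black circles as deposited with a pseudocount of 1, open diamonds centred on the median of the compared genes, grey bars the range over 6 combinations of pseudocount and scaling, dotted lines 2-fold. Prosystemin stays to the right of the 2-fold line, its range being 1.05 to 1.23, while JAR1 and COI1 span 0.

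Ratios of 1 member to another within a library do not depend on how the libraries are scaled. Prosystemin was at 3.89 times the level of COI1 in SlCycB2-OE leaf and 1.67 times in SlCycB2 RNAi leaf. Against AOC it was at 1.03 times in SlCycB2-OE leaf and 0.52 times in SlCycB2 RNAi leaf, so the order of these 2 genes was exchanged. LOXD was at 0.70 times the level of AOS2 in SlCycB2-OE leaf and 0.41 times in SlCycB2 RNAi leaf. Against AOC, LOXD was at 0.23 times in SlCycB2-OE leaf and 0.17 times in SlCycB2 RNAi leaf. AOC was itself at 3.01 times the level of AOS2 in SlCycB2-OE leaf and 2.39 times in SlCycB2 RNAi leaf. AOC, OPR3 and JAR1 kept closer proportions to each other. AOC was at 2.40 times the level of OPR3 in SlCycB2-OE leaf and 2.26 times in SlCycB2 RNAi leaf, and OPR3 at 1.14 times the level of JAR1 in SlCycB2-OE leaf and 1.11 times in SlCycB2 RNAi leaf.

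By level, the order in SlCycB2-OE leaf was prosystemin, AOC, OPR3, JAR1, MYC2, AOS2, COI1, LOXD and AOS1. In SlCycB2 RNAi leaf it was AOC, prosystemin, OPR3, AOS2, JAR1, MYC2, COI1, LOXD and AOS1. Positions 3, 7, 8 and 9 were held by the same genes in both. AOS2 stood 6th in the first order and 4th in the second, among genes within a few RPKM of each other. Without a spread it cannot be said which neighbours in either order differ. All members other than AOS1 lay above the median level of the compared genes, with LOXD above 54.9% of them and AOC above 89.2%.

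**Figure D3:**
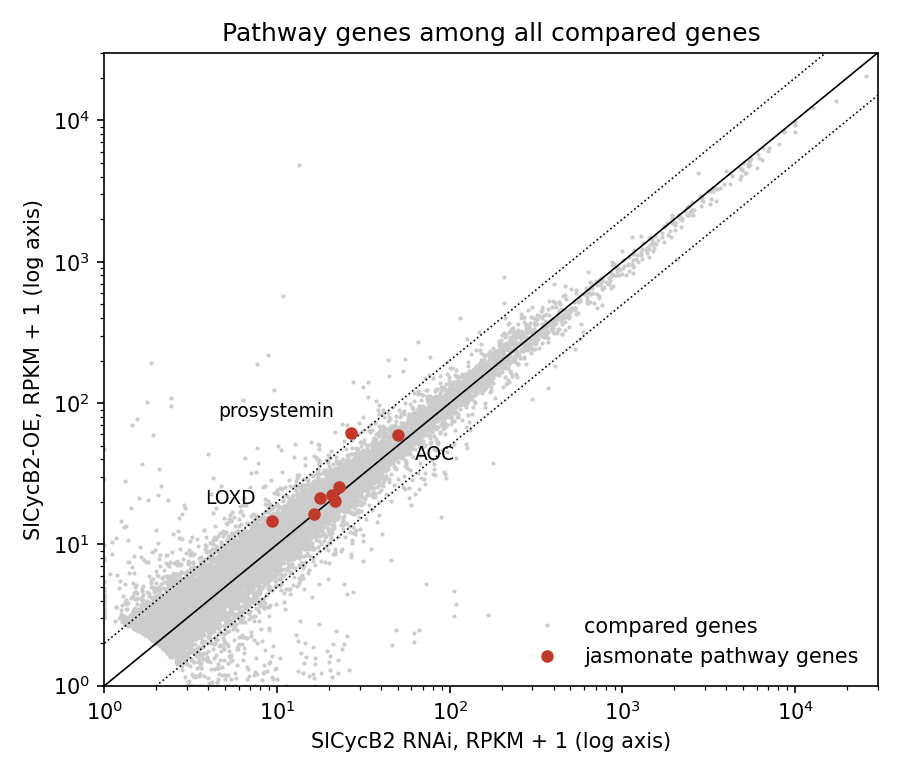
RPKM + 1 of each compared gene in the SlCycB2-OE library (vertical, log axis) and the SlCycB2 RNAi library (horizontal, log axis); grey points are the 19466 compared genes, red points the 8 compared members, the solid line equality and dotted lines 2-fold. Prosystemin is the member outside the dotted lines, at 60.21 RPKM in SlCycB2-OE leaf and 25.68 RPKM in SlCycB2 RNAi leaf.

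The remainder of the pathway was followed with 4 lists of identifiers, recalled from what is generally known of tomato. All 4 lists were written with earlier results of these libraries known, so their counts and medians are given as a description. Their link to the functions given was not checked against an annotation, so single loci are given by identifier. Among 9 loci listed for fatty acid precursor supply and other oxylipin enzymes, 6 could be compared, of which 1 was at least 2-fold higher, 1 was at least 2-fold lower and 4 were within 2-fold. Of all compared genes, 2.6% were higher and 1.92% lower by this limit. The lower locus, Solyc01g006540, was at 1.43 RPKM in SlCycB2-OE leaf and 20.90 RPKM in SlCycB2 RNAi leaf, a log2 ratio of -3.17. The higher one, Solyc01g006560, was at 59.96 RPKM in SlCycB2-OE leaf and 27.83 RPKM in SlCycB2 RNAi leaf, a log2 ratio of 1.08 that came to 0.95 after centring. These 2 loci, close to each other by identifier, thus differed in opposite directions, while LOXD lay between them at 0.64.

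Among 13 loci listed as JAZ repressors and their adaptor, the proteins that hold MYC2 inactive, 4 were listed at 0 in both libraries and 9 could be compared. Of these, 3 were at least 2-fold higher in SlCycB2-OE leaf and 0 were lower, with a median log2 ratio of 0.50 against 0.13 for all compared genes. Among those 3, Solyc12g049400 was below 1 RPKM in SlCycB2 RNAi leaf and reached the mean of 1 RPKM only through the SlCycB2-OE library. The shares of all compared genes past the limit were 2.6% higher and 1.92% lower. Among the listed loci, Solyc01g005440, the most abundant, was at 157.8 RPKM in SlCycB2-OE leaf and 74.75 RPKM in SlCycB2 RNAi leaf. Solyc11g011030 was at 10.44 RPKM in SlCycB2-OE leaf and 3.57 RPKM in SlCycB2 RNAi leaf, and Solyc12g049400 at 2.24 RPKM in SlCycB2-OE leaf and 0.51 RPKM in SlCycB2 RNAi leaf. After centring, only Solyc11g011030 of these loci was past the limit, with a log2 ratio of 1.19. With a pseudocount of 5 Solyc11g011030 came to 0.85 and only Solyc01g005440 passed, at 1.03. Among the 9 compared loci, 4 passed with a pseudocount of 0.1 and 2 when scaled by the trimmed mean of ratios.

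Of 7 loci listed as transcription factors and a coactivator next to MYC2, 6 could be compared and 0 were 2-fold apart, where 2.6% of all compared genes were higher and 1.92% lower. The log2 ratios of these 6 loci lay between 0.11 and 0.32 with a median of 0.19, the same as that of the 8 compared members to 2 decimals. After centring the median of this list was 0.06.

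The 9 loci listed as wound and jasmonate response targets were drawn up with earlier results of these libraries known, so their direction is not independent evidence and nothing is read from their contrast with the members. Of these 9, 8 were at least 2-fold higher and 1 was at least 2-fold lower in SlCycB2-OE leaf, and the median log2 ratio was 3.46. Over all compared genes the shares were 2.6% higher and 1.92% lower. Of the 8 higher loci, 6 were below 1 RPKM in SlCycB2 RNAi leaf and reached the mean of 1 RPKM only through the SlCycB2-OE library, so the count and the median are given as a description. The median level of the 9 loci was 21.52 RPKM in SlCycB2-OE leaf and 0.55 RPKM in SlCycB2 RNAi leaf. Solyc09g084470 was at 76.32 RPKM in SlCycB2-OE leaf and 0.55 RPKM in SlCycB2 RNAi leaf. Solyc08g074630 was at 187.3 RPKM in SlCycB2-OE leaf and 6.66 RPKM in SlCycB2 RNAi leaf. Both had log2 ratios above 4, at 5.64 and 4.62.

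Solyc12g010020 was at 21.52 RPKM in SlCycB2-OE leaf and 1.05 RPKM in SlCycB2 RNAi leaf, and Solyc01g091170 at 20.28 RPKM in SlCycB2-OE leaf and 0.58 RPKM in SlCycB2 RNAi leaf. Solyc07g007250 was at 46.03 RPKM in SlCycB2-OE leaf and listed at 0 in SlCycB2 RNAi leaf. Solyc09g008670 was at 7.57 RPKM in SlCycB2-OE leaf and 0.10 RPKM in SlCycB2 RNAi leaf. The last 2 higher loci were low in both libraries. Solyc03g020080 was at 2.49 RPKM in SlCycB2-OE leaf and listed at 0 in SlCycB2 RNAi leaf, and Solyc08g074680 was at 2.03 RPKM in SlCycB2-OE leaf and 0.42 RPKM in SlCycB2 RNAi leaf, a log2 ratio of 1.09 that came to 0.96 after centring. The exception in direction, Solyc08g074620, was at 30.07 RPKM in SlCycB2-OE leaf and 81.58 RPKM in SlCycB2 RNAi leaf, a log2 ratio of -1.41. Without the 2 loci listed at 0 in SlCycB2 RNAi leaf the median of the other 7 was also 3.46. Solyc03g020080 lay below that median and Solyc07g007250 above it, so leaving both out could not change it. Nothing is therefore read from the equal medians.

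**Figure D4:**
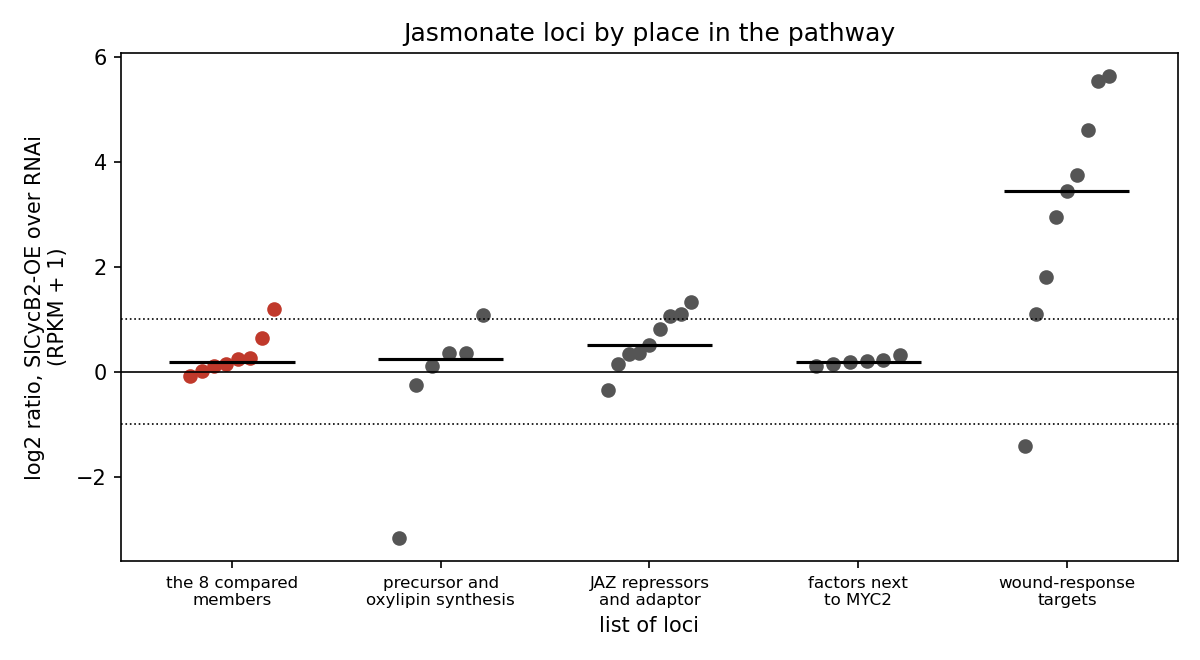
Log2 ratio of SlCycB2-OE over SlCycB2 RNAi (RPKM + 1) for each compared locus, sorted within its list, with the 8 compared members in red at the left and the 4 further lists in grey; horizontal bars are medians and dotted lines 2-fold. The members' median is 0.19 and that of the listed targets is 3.46. All 4 lists were written with earlier results known, and 6 of the 8 higher targets reached the mean of 1 RPKM only through the SlCycB2-OE library.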

How the data were processed

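The authors deposited 1 table of RPKM, 1 value per library for each of 34725 gene models, in 2 decimals; the unit is stated per the file headers. TopHat, a spliced aligner, is named per the submitters' processing notes without version or role; the genome build, annotation, counting program and handling of strand and multiply mapped reads are not stated there or in the labels. RPKM is relative to the library total, so a shift in abundant transcripts moves all other values, and depth is unknown. 

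Libraries were compared as log2((RPKM + 1) / (RPKM + 1)), SlCycB2-OE over SlCycB2 RNAi, with a 2-fold limit; 19466 genes whose RPKM averaged 1 or more were compared. The pseudocount shrinks the ratios of genes at low levels. No test was possible with 1 library per group, so none was run. The members were chosen by identifier under a rule that uses no measured value, but that rule, the lists and the settings were written with earlier results of these data known. All 9 members are named; from the lists, loci at least 2-fold apart are named. With 2 libraries each gene has 1 ratio, so no genes of like pattern were sought. Member names came with the choice of genes. The RefSeq table (assembly SLM_r2.1, 41476 genes) holds 0 identifiers of this kind, and for 8 of the 9 members it lists a gene of that symbol on the chromosome named by the identifier; prosystemin had no such entry. The alternatives were pseudocounts of 0.1 and 5, equal RPKM sums, centring on the median, a trimmed mean of ratios (leaving out 30% at each end by ratio and 5% by level), no filter, a mean RPKM of at least 5, and limits of 1.5-fold and 4-fold. Python 3.11.15, numpy 2.4.6, pandas 2.3.3 and matplotlib 3.10.9 were used, and the procedure was tested on simulated data. The simulated data had counting error alone, at an assumed depth, and set changes well past the 2-fold limit. They therefore do not bear on the size of difference that 2 single libraries can show.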

Additional observations from a re-analysis of the deposited data

How the results depend on the processing

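Of the members, 1 was at least 2-fold higher and 0 were lower under each pseudocount, scaling and filter run. At a 4-fold limit 0 were higher and at a 1.5-fold limit 2 were (prosystemin and LOXD). Of 62 member values under the alternatives, 0 moved by more than the SD of the log2 ratio among genes of similar level (0.41 to 0.62), a scale taken across genes that does not measure replicate spread. A filter leaves a ratio unchanged, and no scaling shifted one by as much as 0.41. Only a changed pseudocount could therefore have moved a value. For all compared genes the numbers higher and lower were 901 and 573 with a pseudocount of 0.1, 141 and 128 with 5, 222 and 155 among genes averaging 5 RPKM or more, 96 and 99 at the 4-fold limit, and 1823 and 893 at the 1.5-fold limit; centring gave 369 and 482, which turned the balance of directions. Of the precursor and oxylipin loci, 0 were higher with a pseudocount of 5, after centring, after the trimmed mean of ratios and at the 4-fold limit. Of the JAZ loci, 1 was higher with a pseudocount of 5 (Solyc01g005440, log2 ratio 1.03) and another 1 after centring (Solyc11g011030, 1.19), so 0 passed under both settings, and 0 passed at the 4-fold limit. With a pseudocount of 0.1, 4 JAZ loci were higher, and when scaled by the trimmed mean of ratios 2 were. The listed targets had a median log2 ratio of 4.79 when the pseudocount was 0.1, of 2.13 when it was 5 and of 4.19 among loci averaging 5 RPKM or more, of which 5 were higher; at the 4-fold limit 0 were lower. Of 94 values for the 14 other named loci, 19 moved by more than that SD, all under a changed pseudocount, and 0 reversed, which a change of pseudocount cannot bring about. Depth is unknown, so counting error, largest for AOS1 and the loci under 1 RPKM, could not be given. No paired analysis was possible because each group has a single library, and no replicate could be left out.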

Other observations

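The compared identifiers next to each member were examined after the data were seen, with 5 taken on either side on the same chromosome. Around COI1, AOC, OPR3 and JAR1, as around prosystemin, 0 of the 10 were 2-fold apart. With 2.6% of all compared genes higher and 1.92% lower by this limit, such a count is near the general share. There was 1 identifier past the limit next to LOXD, at a log2 ratio of 1.81. There was also 1 next to AOS1, at -1.32, and 1 next to AOS2, at -1.14. Next to MYC2 there were 2, both higher in SlCycB2-OE leaf, the larger at 3.70. Counts of 1 or 2 among 10 are too few to set against the general share. The median log2 ratio of the neighbours was 0.06 for prosystemin, against 1.20 for the gene itself, and 0.27 for LOXD, against 0.64 for the gene itself.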
